A study of Mus musculus with 9 samples.

Results

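H19, Igf2, Meg3, Rian, Mirg, Grb10, Dlk1, Peg3, Ndn and Gnas are imprinted genes, with transcripts that mammals express from only 1 parental copy in at least some tissues. Several of them are known for holding hematopoietic stem cells (HSCs) at rest. The genes were taken by symbol from the gene count table, and all 10 symbols were found, each on 1 of 56748 gene rows. HSCs were sorted from the bone marrow of female C57BL/6 mice as Lin- Sca1+ c-Kit+ CD48- CD150+ cells. The yHSCs came from mice aged 6 to 10 weeks, and the paHSCs, from physiologically aged mice of 14 to 16 months, were split by surface P-selectin (Selp) into Selp_low and Selp_high fractions. No group carried a transgene or received a treatment. Each group held 3 RNA-seq libraries made from amplified cDNA, so p-values measure the spread between these libraries, and whether a replicate number marks the same animals in both fractions is not stated.

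Imprinted regions carry a DNA methylation mark, laid down in the germ line of either the mother or the father, that makes the maternal and paternal copies of the genes around it behave differently. Depending on the gene, the copy on the marked chromosome is the silent or the active one. Many imprinted genes act on growth: paternally expressed genes such as Igf2, Dlk1 and Peg3 tend to promote or modulate fetal growth, and maternally expressed genes such as H19 and Grb10 tend to limit it. In adult HSCs the H19-Igf2 and Dlk1-Meg3 regions are known as brakes on growth factor signalling that keep the cells quiescent, and necdin (Ndn) as a growth suppressor that restrains their division. The counts hold no information on parental alleles, so they measure the total transcript of each gene and not its imprint.

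All 9 libraries had between 24866975 and 35375310 counts. Genes with at least 1 count numbered 33654 to 34143 in 5 libraries, 31236 in yHSC replicate 3, 25192 in Selp_high replicate 3, 21755 in Selp_high replicate 1 and 21094 in yHSC replicate 2. The 10 most abundant genes held 44.8% of the counts of Selp_low replicate 2 and 20.9% of those of Selp_low replicate 3, against at most 12.5% elsewhere. Levels are given in CPM, the count as a share of its library on a common scale, with TMM factors over the 9 libraries. The sorting gene Selp stood at 20.5 to 30.0 CPM in yHSCs, 29.3 to 109 in Selp_low and 264 to 652 in Selp_high paHSCs. The 10 HSC marker genes (among them Slamf1, Kit, Procr and Hlf) were present in every group and summed to 1041 to 2319 CPM in yHSCs, 823 to 1508 in Selp_low and 2178 to 3141 in Selp_high paHSCs. Markers of other cells differed between libraries as well. The 7 B and plasma cell genes summed to 105668 CPM in Selp_low replicate 2 and to at most 5396 elsewhere, the 8 neutrophil genes to 212146 CPM in Selp_low replicate 3 and to at most 64785 elsewhere, and the 6 T and NK cell genes to 313 to 927 CPM in Selp_low against 51.3 to 153 in the other libraries. In Selp_low replicate 3, Nkg7 alone gave 619 of the 632 CPM of that last sum. Cd3e, Cd3g, Cd3d and Trac were at 0.375 to 1.87 CPM there, against 19.3 to 226 CPM in Selp_low replicates 1 and 2. The 8 endothelial genes summed to 276 to 451 CPM in Selp_high, 98.2 to 149 in Selp_low and 123 to 329 in yHSCs. All 8 had a positive log2 fold change of Selp_high over Selp_low, 4 of them at an unadjusted p under 0.05 in edgeR, and DESeq2 called Tie1, an endothelial receptor that HSCs also express, which averaged 181 CPM in Selp_high and 38.5 in Selp_low. Plvap reached 106 CPM in Selp_high replicate 1, while Cdh5, the endothelial cadherin, was at or under 1.64 CPM in every library. The part of endothelial transcripts in the results was not tested. The 12 stromal genes summed to 101.5 to 159 CPM in yHSCs and 28.5 to 76.4 in the paHSC libraries. Runx2 alone gave 72.5 of 107 and 62.5 of 101.5 CPM in yHSC replicates 2 and 3, and at most 16.6 CPM in any paHSC library. Cxcl12 was at 75.2 CPM in yHSC replicate 1 and 35.5 in Selp_low replicate 1, and at most 12.4 CPM elsewhere. The 7 megakaryocyte and platelet genes summed to 1251 to 6916 CPM in Selp_high, 153 to 2090 in Selp_low and 117 to 182 in yHSCs. Flt3 and Cd34, which mark progenitors, together with Cd48 summed to 738 to 1540 CPM in yHSCs and 77.3 to 386 in paHSCs, and Flt3 and Cd34 carried that difference. Cd48, whose protein the gate selects against, went the other way in Selp_low replicates 1 and 2, at 174 and 309 CPM. In Selp_low replicate 3 it was at 22.7 CPM, within the range of yHSCs (15.6 to 34.2) and of Selp_high paHSCs (11.6 to 38.6), so the groups overlapped. DESeq2 called it higher in Selp_low paHSCs than in yHSCs and than in Selp_high paHSCs. Erythroid genes (226 to 3046 CPM) and proliferation genes (392 to 2208 CPM) overlapped between the groups.

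Summed over the libraries, Ndn gave 17231 counts and Grb10 8858, Gnas, Meg3, Rian and Dlk1 gave 1452 to 2792 each, and Peg3, Mirg, H19 and Igf2 gave 146, 83, 41 and 13. Per length, Ndn was the most abundant, with a mean of 14.5 FPKM (CPM per kilobase of counted gene length) over the 9 libraries, ahead of Grb10 at 3.12. Gnas at 0.858 and Dlk1 at 0.792 FPKM came next, followed by Meg3 at 0.243 and Rian at 0.166. H19 at 0.0451, Mirg at 0.0442, Peg3 at 0.0339 and Igf2 at 0.00825 FPKM were the lowest. The order of neighbours was not fixed within their spread: Gnas and Dlk1 ranged over 0.407 to 1.38 and 0.163 to 3.33 FPKM across the libraries, and Meg3 and Rian over 0.0725 to 0.503 and 0.00580 to 0.434.

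**Figure D1:**
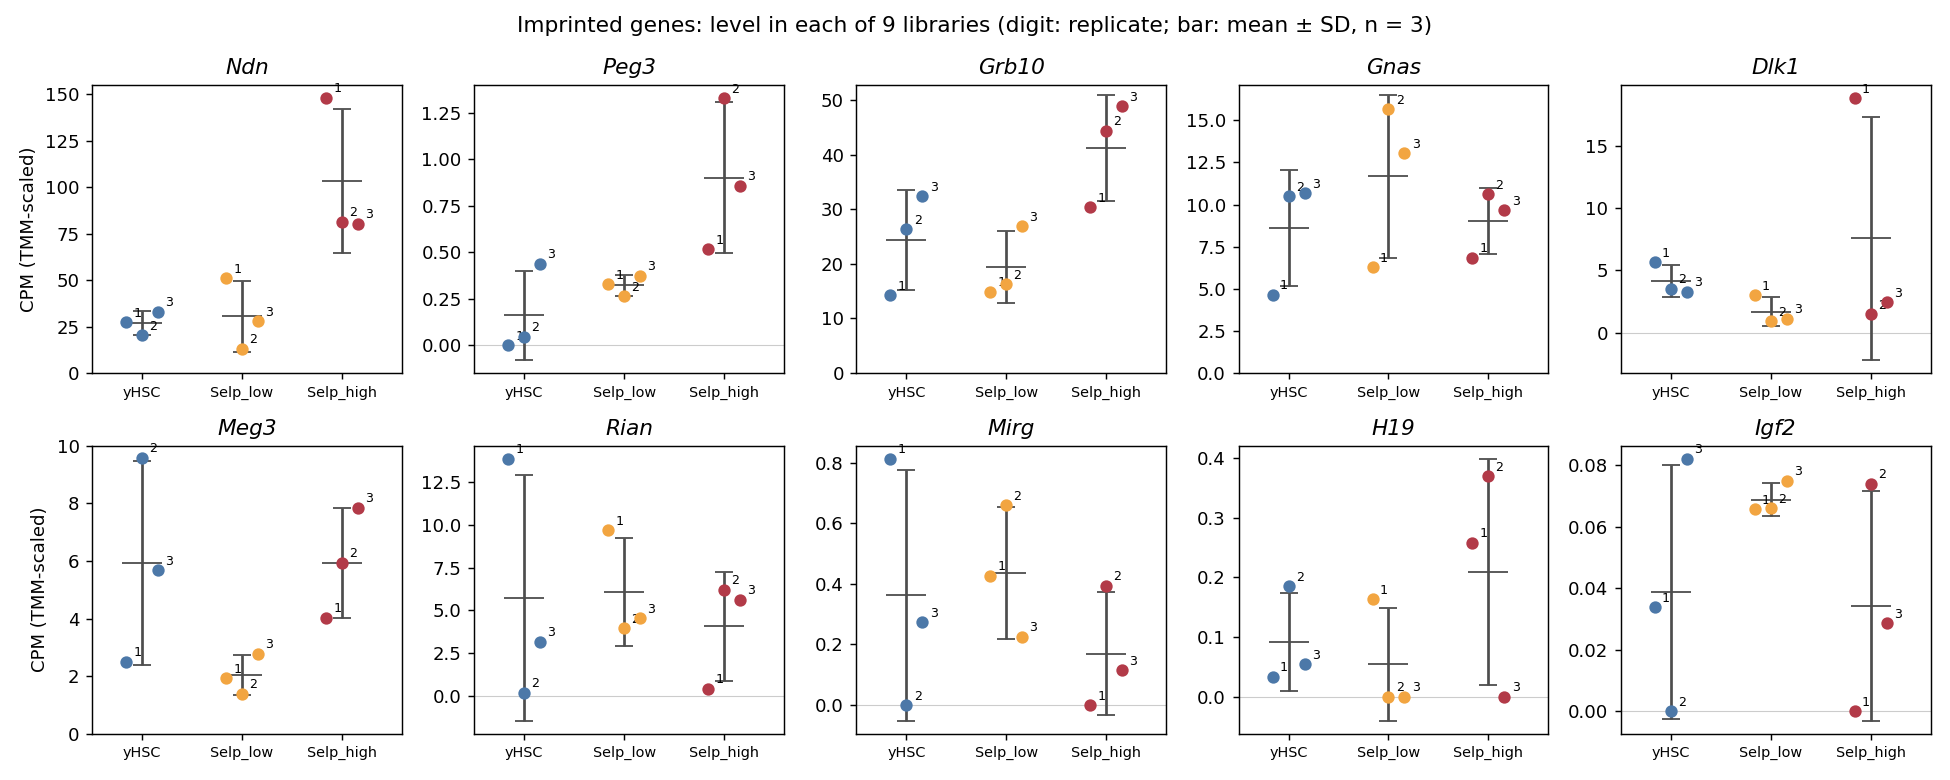
Level of each of the 10 imprinted genes in CPM (vertical axes, linear, a different scale in each panel) in the 3 yHSC, 3 Selp_low and 3 Selp_high libraries; points are libraries numbered by replicate, and bars give the mean and SD (n = 3). All 3 Selp_high libraries lie above all Selp_low libraries for Ndn, Peg3, Grb10 and Meg3, while 1 Selp_high library, at 18.9 CPM, carries the Dlk1 mean.

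Necdin is the member that stood out. Ndn (ENSMUSG00000033585, an intronless protein-coding gene at chr7:61996317-62000010 on the plus strand of mm39) encodes a MAGE family protein that is expressed from the paternal chromosome and binds growth-promoting transcription factors and p53. It was at 27.4, 20.2 and 32.9 CPM in yHSC replicates 1 to 3, at 50.9, 13.04 and 27.9 CPM in Selp_low, and at 148, 81.5 and 80.3 CPM in Selp_high paHSCs. Every Selp_high library was above every other library, and the Selp_low libraries spanned the whole range of the yHSCs. The means were 103 ± 38.9 CPM in Selp_high, 30.6 ± 19.1 in Selp_low and 26.8 ± 6.33 in yHSCs (SD, n = 3 each). Selp_high paHSCs were 3.80-fold above yHSCs (log2 fold change 1.92, SE 0.34, unadjusted p = 0.000625, adjusted p = 0.119 in edgeR's quasi-likelihood test), and DESeq2 called the difference, with an adjusted p of 0.000130. The same gene was 3.35-fold higher in Selp_high than in Selp_low paHSCs (log2 fold change 1.74, SE 0.53, adjusted p = 0.338 in edgeR and 0.105 in DESeq2). Between Selp_low paHSCs and yHSCs the log2 fold change was 0.24 (SE 0.49), with an edgeR adjusted p of 0.965. The exact permutation test on each pair of groups gave 0.1 for both Selp_high comparisons, the smallest p that 3 against 3 libraries allow, and 1 for Selp_low against yHSCs.

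The 300 bases around the RefSeq start of Ndn, chr7:62348027-62348326 on the plus strand of GRCm38.p6 (an older build than that of the counts), are shown because Ndn had the smallest p of the members, with the CG dinucleotides, the sites that imprint methylation uses, in capitals:
Ndn promoter: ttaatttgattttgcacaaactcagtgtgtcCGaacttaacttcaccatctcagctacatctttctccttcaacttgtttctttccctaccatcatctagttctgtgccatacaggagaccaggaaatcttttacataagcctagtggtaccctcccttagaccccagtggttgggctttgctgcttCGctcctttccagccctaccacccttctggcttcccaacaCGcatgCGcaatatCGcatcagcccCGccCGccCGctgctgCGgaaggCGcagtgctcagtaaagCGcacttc
They hold 11 CG, against a median of 7 in 32851 promoter windows of the same length, and 10 of the 11 lie past the midpoint of the window, on the side of the transcript.

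The count table has 6 rows within 200 kb of Ndn, among them other paternally expressed genes of the Prader-Willi region. Mkrn3, which encodes a ubiquitin ligase, was at 3.38, 4.84 and 4.32 CPM in yHSCs, 2.56, 0.725 and 1.57 in Selp_low and 9.92, 5.34 and 4.87 in Selp_high paHSCs. All Selp_high libraries were above all others, but Selp_high replicate 3 and yHSC replicate 2 lay side by side, at 4.87 and 4.84 CPM. The Selp_low libraries were below all yHSCs. Mkrn3 was not scaled to the HSC markers. Its log2 fold change was 2.03 (SE 0.61, edgeR adjusted p = 0.338) between the fractions. Peg12 gave 0.413 to 2.11 CPM and overlapped in all groups, and Magel2 gave 10 counts in all and none in the 3 Selp_high libraries. The long noncoding RNA row Gm32061 runs over Ndn and Magel2 on the other strand and over Mkrn3 on the same strand. Because the strand setting of the counting is not given, reads of these overlapping rows cannot be told apart. Gm32061 had at most 4.43 CPM and was listed at 0 counts in yHSC replicate 2 and 2 counts in Selp_high replicate 1. These are the 2 libraries with the fewest genes detected, and Ndn was at 20.2 CPM in the first and 148 CPM in the second.

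The level of Ndn was also set beside the HSC markers, since in a bulk library fewer cells of a type and less RNA per cell cannot be told apart. Of the 10 HSC markers, 9 were higher in Selp_high than in Selp_low paHSCs at an unadjusted p under 0.05 in edgeR, and 8 did not overlap between the fractions. Per 1000 CPM of summed HSC markers, Ndn was at 47.2, 34.3 and 36.8 CPM in Selp_high, 33.8, 9.91 and 33.9 in Selp_low, and 26.3, 9.97 and 14.2 in yHSCs. On that scale the Selp_high libraries were still above all others, but replicate 2 of Selp_high and replicate 3 of Selp_low lay side by side. The part of the HSC share in the difference between the fractions was not tested.

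**Figure D2:**
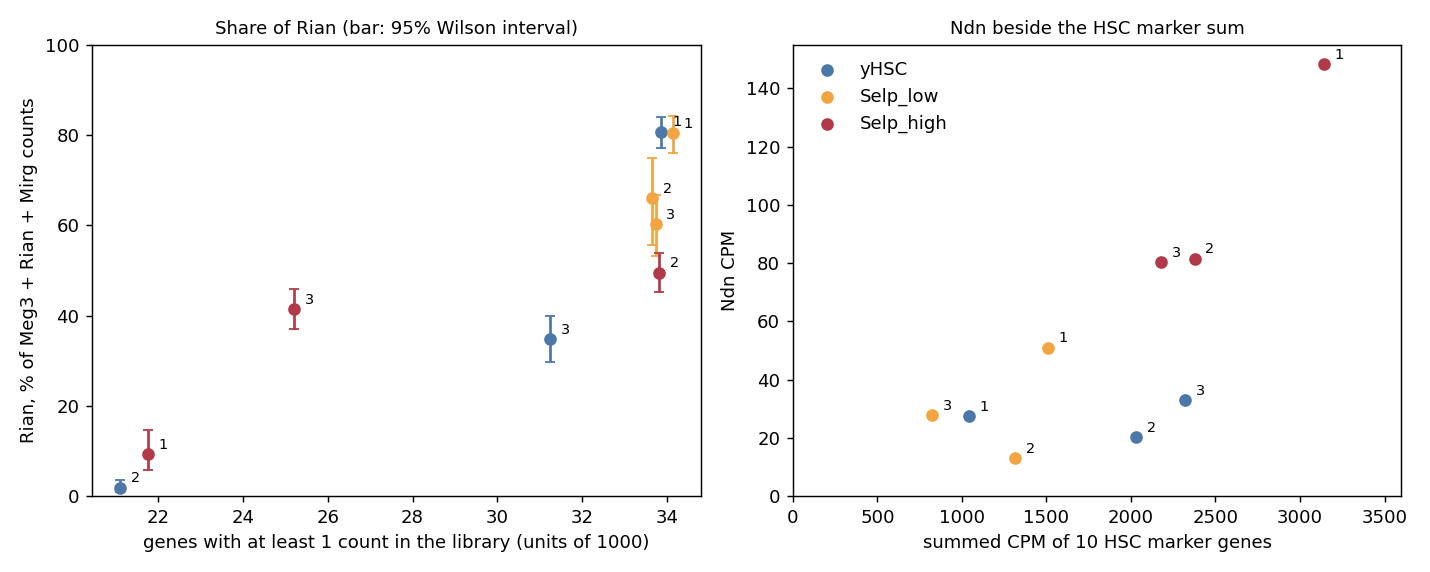
Left, share of Rian among the counts of Meg3, Rian and Mirg (percent, with 95% Wilson intervals for counting error only) against the number of genes with a count in each library (axis in units of 1000 genes). Right, Ndn in CPM against the summed CPM of the 10 HSC markers. Points are libraries numbered by replicate, in blue for yHSC, orange for Selp_low and red for Selp_high. The 2 libraries with the fewest genes, 21094 and 21755, have Rian shares of 1.90% and 9.30%, and the 3 Selp_high libraries have the highest Ndn, 80.3 CPM or more.

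Peg3 (ENSMUSG00000002265, chr7:6706891-6733430, minus strand, mm39) encodes a zinc finger protein made from the paternal copy and was barely expressed. It gave 0, 2 and 16 counts in yHSCs, 10, 4 and 10 in Selp_low and 20, 54 and 30 in Selp_high paHSCs. In CPM these were 0, 0.0464 and 0.438, then 0.328, 0.264 and 0.375, and then 0.517, 1.33 and 0.859. The count of 0 in yHSC replicate 1 allows up to 3 counts, or 0.102 CPM, and limits of this kind cover counting error only. All Selp_high libraries were above all others, at 2.76-fold the Selp_low level (log2 fold change 1.46, SE 0.79, edgeR adjusted p = 0.499) and 5.67-fold the yHSC level (2.50, SE 1.55, adjusted p = 0.864), neither of which passed the test. For both fractions over yHSCs edgeR gave an adjusted p of 0.829, and the exact permutation test an unadjusted p of 0.0476. Per 1000 CPM of summed HSC markers, Peg3 was at 0.165, 0.560 and 0.394 CPM in Selp_high, 0.217, 0.200 and 0.455 in Selp_low and 0, 0.0228 and 0.189 in yHSCs, so on that scale the Selp_high libraries overlapped with both other groups.
The RefSeq start of Peg3 (chr7:6730370-6730669, minus strand, GRCm38.p6) is printed for comparison with that of Ndn, with CG in capitals:
Peg3 promoter: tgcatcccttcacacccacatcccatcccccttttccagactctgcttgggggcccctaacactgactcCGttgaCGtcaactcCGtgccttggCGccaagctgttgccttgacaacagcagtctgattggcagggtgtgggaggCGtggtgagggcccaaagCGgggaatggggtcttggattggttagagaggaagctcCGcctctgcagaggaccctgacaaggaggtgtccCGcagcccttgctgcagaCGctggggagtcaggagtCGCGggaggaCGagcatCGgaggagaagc
It holds 13 CG. Neither window holds the YY1 motif GCCATNTT, which 6.05% of all promoter windows hold on either strand, nor the NRF1 motif (4.6%) or the ETS motif CCGGAAGT (3.89%).

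Grb10 (ENSMUSG00000020176, chr11:11880508-11988683, minus strand, mm39) encodes an adaptor that binds the insulin and IGF1 receptors and dampens their signal. Its levels were 14.3, 26.4 and 32.4 CPM in yHSCs, 14.9, 16.3 and 26.9 CPM in Selp_low, and 30.4, 44.4 and 49.0 CPM in Selp_high paHSCs. The Selp_high libraries were above all Selp_low libraries, but the lowest of them lay within the yHSC range. The difference between the fractions was 2.12-fold (log2 fold change 1.09, SE 0.34, unadjusted p = 0.0156, edgeR adjusted p = 0.338), and against yHSCs it was 1.67-fold (0.74, SE 0.36, adjusted p = 0.743). Per 1000 CPM of HSC markers, Grb10 was at 9.68, 18.7 and 22.5 CPM in Selp_high and 9.87, 12.4 and 32.7 in Selp_low, so the fractions overlapped on that scale.
One of its RefSeq starts (chr11:12037371-12037670, minus strand, GRCm38.p6) is the densest in CG of all the members' windows and is shown for that contrast:
Grb10 promoter: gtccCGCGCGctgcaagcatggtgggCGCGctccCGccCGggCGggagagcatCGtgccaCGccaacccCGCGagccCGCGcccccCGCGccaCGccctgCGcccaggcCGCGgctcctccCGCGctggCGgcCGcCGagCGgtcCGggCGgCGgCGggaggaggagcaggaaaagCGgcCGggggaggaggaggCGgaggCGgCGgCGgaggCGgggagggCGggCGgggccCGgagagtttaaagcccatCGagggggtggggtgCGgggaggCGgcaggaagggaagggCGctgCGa
It holds 45 CG, more than 98.1% of promoter windows.

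Gnas (ENSMUSG00000027523, chr2:174126113-174188537, plus strand, mm39) encodes the stimulatory G protein alpha subunit and, from other first exons, further imprinted products that the gene-level count sums. It was at 4.64, 10.5 and 10.7 CPM in yHSCs, 6.29, 15.7 and 13.04 in Selp_low and 6.85, 10.6 and 9.65 in Selp_high paHSCs. The groups overlapped throughout. Its log2 fold changes were -0.37 (SE 0.43) between the fractions, 0.05 (SE 0.42) for Selp_high and 0.50 (SE 0.47) for Selp_low paHSCs over yHSCs, with edgeR adjusted p-values of 0.756, 0.999 and 0.820. It had the narrowest range of the 10 genes, 3.38-fold from the lowest to the highest library.

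The Dlk1-Meg3 region on chromosome 12 holds 4 of the genes in 1 row on the plus strand of mm39: Dlk1 (ENSMUSG00000040856, chr12:109418749-109429262), Meg3 (ENSMUSG00000021268, chr12:109506879-109538165), Rian (ENSMUSG00000097451, chr12:109570242-109628150) and Mirg (ENSMUSG00000097391, chr12:109696198-109715894). The gaps between them are 77.6, 32.1 and 68.0 kb. Dlk1 encodes a transmembrane relative of the Notch ligands and is expressed from the paternal copy. Meg3, Rian and Mirg are long noncoding RNAs of the maternal copy, of which Rian hosts small nucleolar RNAs and Mirg hosts a large cluster of microRNAs.

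Dlk1 was at 5.65, 3.55 and 3.31 CPM in yHSCs and at 3.01, 0.922 and 1.12 CPM in Selp_low paHSCs. All Selp_low libraries were below all yHSCs, with a log2 fold change of -1.26 (SE 0.65, edgeR adjusted p = 0.538). Selp_high paHSCs were at 18.9, 1.48 and 2.43 CPM. Replicate 1 was therefore above every other library and replicates 2 and 3 below every yHSC library, and the mean of 7.59 ± 9.77 CPM (SD, n = 3) rests on that library. The log2 fold change of Selp_high over Selp_low was 2.14 (SE 1.06, edgeR adjusted p = 0.464) and was 0.20 without Selp_high replicate 1. Against yHSCs it was 0.82 (SE 0.93) and turned to -1.13 without that replicate.

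Meg3, which is known to restrain mTOR signalling in HSCs through the microRNAs of its region, was at 2.50, 9.60 and 5.69 CPM in yHSCs. It was at 1.93, 1.38 and 2.77 CPM in Selp_low and at 4.03, 5.94 and 7.85 CPM in Selp_high paHSCs. The fractions did not overlap, and Selp_high was 2.90-fold above Selp_low (log2 fold change 1.54, SE 0.50, unadjusted p = 0.0173, edgeR adjusted p = 0.338, DESeq2 adjusted p = 0.123). Its mean was 5.94 ± 1.91 CPM in Selp_high and 5.93 ± 3.55 CPM in yHSCs, a log2 fold change of -0.04 (SE 0.56). Selp_low paHSCs were at 2.03 ± 0.700 CPM, a log2 fold change of -1.49 against yHSCs (SE 0.60, unadjusted p = 0.0429, adjusted p = 0.422), although yHSC replicate 1 lay within the Selp_low range. Per 1000 CPM of HSC markers, Meg3 overlapped between the fractions, at 1.28 to 3.60 CPM in Selp_high and 1.05 to 3.37 CPM in Selp_low.
The first RefSeq start of Meg3 (chr12:109540746-109541045, plus strand, GRCm38.p6) is shown as that of the gene that heads the maternal transcripts, with CG in capitals:
Meg3 promoter: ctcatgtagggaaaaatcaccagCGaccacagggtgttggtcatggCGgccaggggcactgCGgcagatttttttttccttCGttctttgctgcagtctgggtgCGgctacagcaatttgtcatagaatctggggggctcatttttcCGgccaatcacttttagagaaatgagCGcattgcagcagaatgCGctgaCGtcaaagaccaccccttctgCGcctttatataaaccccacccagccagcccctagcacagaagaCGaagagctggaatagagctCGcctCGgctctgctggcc
It holds 13 CG, and it has no exact match to the motifs named above.

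Rian followed a different order of libraries. It was at 13.9, 0.185 and 3.17 CPM in yHSCs, 9.70, 3.95 and 4.53 CPM in Selp_low, and 0.413, 6.21 and 5.61 CPM in Selp_high paHSCs. The 2 lowest libraries, yHSC replicate 2 and Selp_high replicate 1, were those with the fewest genes detected, and the other 7 were all at or above 3.17 CPM. Neither was low in Meg3, the neighbouring transcript: yHSC replicate 2 had the highest Meg3 of all libraries. Of the counts of Meg3, Rian and Mirg together, Rian made up 1.90% in yHSC replicate 2 (95% Wilson interval 0.964 to 3.70, 422 counts; these intervals treat reads of amplified cDNA as independent and cover counting error only) and 9.30% in Selp_high replicate 1 (5.81 to 14.6, 172 counts). In the other 7 libraries it made up 34.7% to 80.7%, with the highest shares in yHSC replicate 1 and Selp_low replicate 1. The groups overlapped in every comparison, and the log2 fold changes lay between -0.58 and 0.08 with SEs of 0.91 to 1.37. Without these 2 libraries, a choice made after seeing the data, the log2 fold change of Selp_low paHSCs over yHSCs became -0.48.
The RefSeq start of Rian (chr12:109603695-109603994, plus strand, GRCm38.p6) is shown because it differs from those above in having 0 CG, with capitals marking its match to the CTCF core motif, which 1.28% of promoter windows hold on either strand:
Rian promoter: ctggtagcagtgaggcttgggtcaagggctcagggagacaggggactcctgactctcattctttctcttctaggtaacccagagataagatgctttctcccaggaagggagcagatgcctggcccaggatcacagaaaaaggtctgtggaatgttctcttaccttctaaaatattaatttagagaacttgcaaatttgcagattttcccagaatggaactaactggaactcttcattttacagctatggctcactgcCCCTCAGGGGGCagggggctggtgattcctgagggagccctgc

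Mirg gave 24, 0 and 10 counts in yHSCs, 13, 10 and 6 in Selp_low and 0, 16 and 4 in Selp_high paHSCs. Its 2 counts of 0 fell in the same libraries, yHSC replicate 2 and Selp_high replicate 1, where they allow up to 0.0695 and 0.0775 CPM. The noncoding RNA row B830012L14Rik, which lies between Rian and Mirg, was also at 0 counts in both and at 29 to 89 counts in the others. The highest level of Mirg was 0.812 CPM, and its log2 fold changes in the 3 pairwise comparisons lay between -1.33 and 0.29, with SEs of 1.39 to 1.98.

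The interval from Dlk1 to Mirg contains 102 rows of the count table, of which 26 had a count. Of 66 microRNA genes, 12 had a count, with 94 counts in all, and of 23 small nucleolar RNA genes 5 had a count, with 48 counts. RNA-seq of this kind does not capture mature microRNAs, so these counts measure fragments of longer transcripts. Of the 12, 11 matched RefSeq and gave 21 mature sequences. The arms that share a seed (bases 2 to 8, in capitals) are shown, since a common seed means common target sites, first from Mir376b and Mir376c with 23 and 9 counts and then from Mir411 and Mir379 with 11 and 4 counts:
miR-376b-5p: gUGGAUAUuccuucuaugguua
miR-376c-5p: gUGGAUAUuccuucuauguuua
miR-411-3p: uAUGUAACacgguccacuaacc
miR-379-3p: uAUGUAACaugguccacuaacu
The 17 other arms had a seed each of their own among the 19 distinct seeds.

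H19 (ENSMUSG00000000031, chr7:142129262-142131886) and Igf2 (ENSMUSG00000048583, chr7:142204503-142220553), both on the minus strand of mm39 and 72.6 kb apart, were nearly silent. H19, a maternally expressed long noncoding RNA, gave 1, 8 and 2 counts in yHSCs, 5, 0 and 0 in Selp_low and 10, 15 and 0 in Selp_high paHSCs. The highest was 0.369 CPM, and the counts of 0 allow up to 0.198 CPM in Selp_low replicate 2, 0.112 in Selp_low replicate 3 and 0.0859 in Selp_high replicate 3. Igf2, the paternally expressed growth factor, gave 1, 0 and 3 counts in yHSCs, 2, 1 and 2 in Selp_low and 0, 3 and 1 in Selp_high paHSCs. No library had more than 3. Both were removed by the filter on low counts in every comparison, and a difference between the groups was not detectable at this depth. H19 also carries a microRNA, whose arms are given with the seed in capitals as the small RNA product of the transcript. Neither of the 2 microRNA rows between H19 and Igf2 had a count:
miR-675-5p: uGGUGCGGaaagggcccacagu
miR-675-3p: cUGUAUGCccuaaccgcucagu

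Across the list, no member was called as a DEG (adjusted p of 0.05 or less and at least a 2-fold change) by edgeR in any comparison. In the comparison of the fractions 8 members passed the filter on low counts, as did 8 for Selp_high paHSCs over yHSCs, 7 for Selp_low paHSCs over yHSCs, where Peg3 also dropped out, and 8 for both fractions over yHSCs. Among all genes tested edgeR called 0%, 0.165%, 0% and 0%, in that order, while DESeq2 called 2.46%, 3.26%, 2.63% and 2.71% and, of the members, only Ndn in Selp_high paHSCs over yHSCs. At an unadjusted p under 0.05 in edgeR the members counted 3 (Ndn, Meg3 and Grb10), 1 (Ndn), 1 (Meg3) and 1 (Ndn), against a background of 12.5%, 7.59%, 11.3% and 8.97% of all genes. By direction, that background was 6.88% higher and 5.67% lower between the fractions, 4.48% and 3.11% for Selp_high paHSCs over yHSCs, 7.11% and 4.17% for Selp_low paHSCs over yHSCs, and 5.42% and 3.55% for both fractions. The DESeq2 calls split into 0.802% higher and 1.66% lower, 2.05% and 1.2%, 1.79% and 0.835%, and 1.72% and 0.989%, in the same order.

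Between the fractions, 5 of the 8 members tested had a higher mean in Selp_high and 3 a lower one, and the median log2 fold change was 1.28, against -0.11 over all genes tested. Without overlap, 4 members (Meg3, Grb10, Peg3 and Ndn) lay higher in Selp_high and 0 lay lower, where 10.3% and 10.6% of all genes tested did so. The HSC markers had a median log2 fold change of 1.51 in the same comparison, and per 1000 CPM of their sum the members counted 1 higher (Ndn) and 3 lower (Igf2, Rian and Mirg). That count covers all 10 members, including Igf2, which was not tested and had at most 3 counts in any library. The share of all genes on that scale was not computed, so the count has no background. Against yHSCs, Selp_high paHSCs had 2 members higher without overlap, Peg3 and Ndn (background 8.52%), and 0 lower (5.28%), with a median of 0.40 against -0.03. Selp_low paHSCs had 1 member lower without overlap, Dlk1 (background 6.74%), and 0 higher (9.59%), with a median of 0.08, the same as that of all genes. For both fractions over yHSCs, 0 members lay apart in either direction (background 2.68% higher and 1.41% lower), the median was 0.00 against -0.02, and the smallest unadjusted p was that of Ndn (log2 fold change 1.07, SE 0.43, unadjusted p = 0.0331, edgeR adjusted p = 0.501). The exact permutation test gave an unadjusted p of 0.238 for Ndn there. Its smallest p among the members was 0.0476, for Peg3, which had 146 counts in all and an edgeR adjusted p of 0.829. Both tests treat the fractions as independent libraries, so their p-values may be too small if the fractions share animals. These comparisons share libraries, so they are given side by side and not as repeats of each other.

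**Figure D3:**
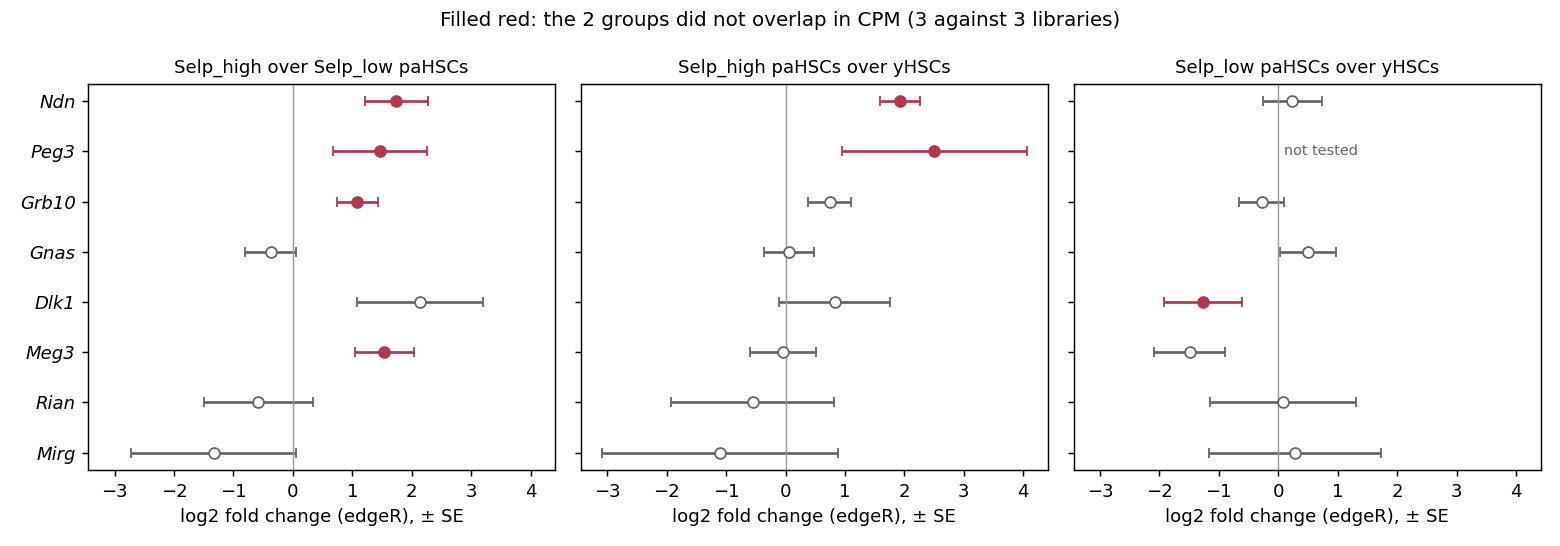
Log2 fold change with its SE (horizontal axis, edgeR) of the 8 members that passed the filter on low counts, in the 3 pairwise comparisons. Filled red points are members whose groups did not overlap in CPM: Ndn, Peg3, Grb10 and Meg3 between the fractions, Ndn and Peg3 for Selp_high over yHSCs, and Dlk1 for Selp_low over yHSCs.

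Each of the 7 members tested in all 3 pairwise comparisons was also set beside the 18597 genes that passed there, by Pearson correlation of log2 CPM over the 9 libraries, as a description. The pattern of Ndn was most like those of Casp12 and Klhl4 (both r = 0.991), that of Meg3 like Dnm1l (0.981) and Lrrc58 (0.976), and that of Grb10 like Soga1 (0.979) and Med12l (0.975). Dlk1 was most like Maoa (0.979) and Mfap3 (0.978), Rian like ENSMUSG00002076126 (0.996) and Lrrc7 (0.995), Mirg like Tmc5 (0.990) and Gm37459 (0.988), and Gnas like Ppp4r2 (0.983) and Kcnk6 (0.950). No member was among the 2 genes most like another, and all these points share the depth and the gene detection of their library.

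A wider list of 63 other imprinted genes, of which 62 were in the table and 61 had a count, was read in the same way. Between the fractions 45 were tested, 26 were higher in Selp_high and 19 lower, with a median log2 fold change of 0.19 against -0.11 over all genes, and 0 passed in edgeR. In edgeR 8 had an unadjusted p under 0.05, all of them higher in Selp_high (background 6.88% higher and 5.67% lower), and DESeq2 called 2, Begain and Mest. For Selp_high paHSCs over yHSCs 45 were tested, 23 higher and 22 lower, and DESeq2 called Cdkn1c and Bcl2l1 higher. For Selp_low paHSCs over yHSCs 46 were tested, 18 higher and 28 lower, and DESeq2 called Gab1 and Smoc1 lower. For both fractions over yHSCs 47 were tested, 15 higher and 32 lower, and DESeq2 called Smoc1. In that order, the medians over yHSCs were 0.04, -0.16 and -0.18, against -0.03, 0.08 and -0.02 over all genes. The genes DESeq2 called and Mkrn3 are named after their values were seen.

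Cdkn1c, which encodes the cyclin-dependent kinase inhibitor p57, a maternally expressed gene that holds HSCs in quiescence, was at 11.9, 10.8 and 16.3 CPM in yHSCs, 17.0, 4.74 and 9.29 in Selp_low and 80.4, 27.7 and 23.6 in Selp_high paHSCs. In CPM every Selp_high library was above all others, but Cdkn1c was not scaled to the HSC markers. It was 1.74 higher on the log2 scale in Selp_high paHSCs than in yHSCs (SE 0.51, edgeR adjusted p = 0.383, DESeq2 adjusted p = 0.0434) and 2.07 higher than in Selp_low paHSCs (SE 0.65, adjusted p = 0.338 and 0.0768). Begain, the neighbour of Dlk1 on the side away from Meg3, was at 5.99, 5.67 and 5.38 CPM in Selp_high and 1.34, 1.65 and 1.35 in Selp_low paHSCs, a log2 fold change of 1.96 (SE 0.42, edgeR adjusted p = 0.338, DESeq2 adjusted p = 0.00967), while the yHSCs ranged from 0.474 to 6.35 CPM. Igf2r, the maternally expressed receptor that takes up and degrades Igf2, was at 1.19 to 10.5 CPM in Selp_high, 6.72 to 17.9 in Selp_low and 5.45 to 11.6 in yHSCs, and did not pass in any comparison. Plagl1, a zinc finger gene of the same growth network, gave 77 counts in Selp_high replicate 2 and at most 16 elsewhere and was not tested. The 5 most abundant of the list, Cd81 (452 CPM in the mean of 9 libraries), Nap1l4 (295), H13 (214), Tssc4 (126) and Ube3a (78.6), overlapped between the groups in every comparison, with log2 fold changes from -0.47 to 0.42.

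**Figure D4:**
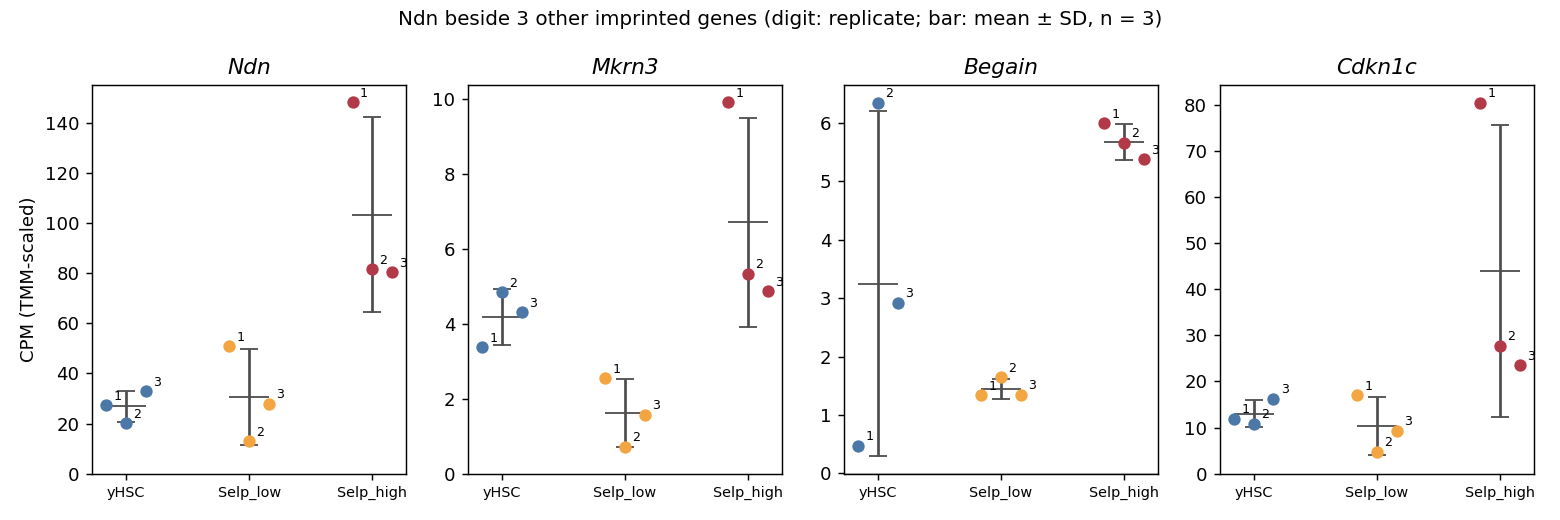
Ndn beside its neighbour Mkrn3, the Dlk1 neighbour Begain and the p57 gene Cdkn1c, in CPM (vertical axes, linear), in the 3 groups; points are libraries numbered by replicate and bars the mean and SD (n = 3). In all 4 panels the Selp_high libraries lie above the Selp_low libraries, and for Begain the yHSC libraries span 0.474 to 6.35 CPM.

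The genes of the IGF axis, through which H19, Igf2 and Grb10 act, numbered 20, and 0 passed in edgeR or DESeq2. Of 15 tested, 8 were higher in Selp_high than in Selp_low paHSCs and 7 lower, and 15 of 18 were lower in Selp_high paHSCs than in yHSCs, with a median log2 fold change of -0.57 against -0.03 over all genes. Likewise 15 of 18 were lower in Selp_low paHSCs than in yHSCs (median -0.35 against 0.08), and 16 of 19 in both fractions together. The 3 most abundant were Igfbp4, an IGF-binding protein, at 145 CPM in the mean of 9 libraries, the adaptor Shc1 at 140 and Irs2 at 51.5. Irs2, a docking protein of the insulin and IGF1 receptors, was at 14.2, 23.1 and 24.5 CPM in Selp_high, 73.4, 124 and 30.1 in Selp_low and 18.1, 85.5 and 70.7 in yHSCs. Its fractions did not overlap, opposite in direction to Grb10 (log2 fold change -1.89, SE 0.53, edgeR adjusted p = 0.338, DESeq2 adjusted p = 0.0584).

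Of the 22 regulators that set, keep or read imprints, 21 were tested between the fractions, 12 were higher and 9 lower in Selp_high, and 0 passed. For Selp_low paHSCs over yHSCs 7 were higher and 13 lower, and DESeq2 called Tet1, an enzyme that oxidises methylcytosine, which was at 7.24 to 8.83 CPM in Selp_low, 9.30 to 13.9 in Selp_high and 14.5 to 30.1 in yHSCs (log2 fold change of Selp_low -1.45, SE 0.33, edgeR adjusted p = 0.332, DESeq2 adjusted p = 0.0436). For Selp_high paHSCs over yHSCs 3 were higher and 18 lower, and for both fractions 5 were higher and 16 lower, with a DESeq2 call of Tet1 alone (log2 fold change -1.20, SE 0.28, edgeR adjusted p = 0.255). The median log2 fold change of the regulators was 0.17 between the fractions, against -0.11 over all genes. Over yHSCs it was -0.28 for Selp_high, -0.20 for Selp_low and -0.28 for both fractions, against -0.03, 0.08 and -0.02 over all genes. The most abundant, the cohesin subunit Smc1a (222 CPM), the corepressor Trim28 (148) and the insulator protein Ctcf (129), were not called. The de novo methyltransferase Dnmt3b, named after its values were seen, was at 43.1 to 47.4 CPM in Selp_high, 15.7 to 26.8 in Selp_low and 30.0 to 105 in yHSCs, with an edgeR adjusted p of 0.338 between the fractions.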

How the data were processed

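RNA-seq libraries of 9 sorted HSC samples were analysed from the deposited raw read counts per gene, whole numbers with no normalization that the authors made by cleaning reads with fastp, aligning with HISAT2 (2.2.1) and counting with featureCounts (2.0.6). The submitters' processing notes name mm39 as the build; the strand setting and the handling of multi-mapping reads were not stated there. The table held 0 unused sample columns.

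Each pair of groups was fitted alone in R 4.3.3 with edgeR 4.0.16 (filterByExpr by group, TMM, the legacy quasi-likelihood test, Benjamini-Hochberg adjustment over all genes tested), and both fractions over yHSCs in a fit of all 9 libraries. Genes counted as DEGs when the adjusted p was at most 0.05 with a log2 change of 1 or more either way. Levels used TMM factors over the 9 libraries, and FPKM the gene length in the table. DESeq2 1.42.0, limma 3.58.1 (voom with quality weights), other scalings and filters, and fits without each library were alternatives. The code was tested on simulated counts. Figures used Python 3.11.15 and matplotlib 3.10.9.

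The main fits used no pairing. Only the alternatives with a replicate block or with summed fractions used the replicate numbers. The fractions' numbers were taken as pairs there because same-numbered libraries deviated together (residual correlations 0.221, 0.325 and 0.346). Numbers shared with yHSCs did not pair (-0.401 to 0.100). The members and lists were chosen with earlier results of these data known. All 10 members were named; other imprinted genes were named if they were Cdkn1c, Igf2r or Plagl1, were called, or were among the 5 most abundant, and genes of the IGF axis and the imprint regulators if called or among the 3 most abundant. Promoter windows matched 9 of 10 members (not H19); these and microRNAs came from RefSeq (GRCm38.p6).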

Additional observations from a re-analysis of the deposited data

How the results depend on the processing

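The count of members called was 0 under every alternative run in 3 of the 4 comparisons. For Selp_high paHSCs over yHSCs it was 1, Ndn, with DESeq2, with limma voom and quality weights and with no filter on low counts, and 0 under the others. Ndn there kept its direction under all 14 alternatives, with adjusted p-values from 0.000130 to 0.573, and its log2 fold change was 1.57 to 2.10 when 1 library at a time was left out. With the replicate block the count of members was 0 in all 4 comparisons, and Ndn between the fractions had an adjusted p of 0.0919. Over all genes, DESeq2 called 608, 607, 516 and 480 (in the order of the report) where edgeR called 0, 33, 0 and 0, limma voom 0, 275, 431 and 279, and edgeR with no filter 193, 472, 365 and 185. The newer edgeR setting called 92 for Selp_high paHSCs over yHSCs and 31 for both fractions, and 1 fit of all libraries called 19 for the former. The block moved the first count to 9, the second to 0 and the last to 1. The second count was 0 without yHSC replicate 2 or 3 or Selp_high replicate 2 or 3, the first was 50 and the third 118 without Selp_low replicate 3, and the last was 15, 14 and 25 without yHSC replicate 1, Selp_low replicate 1 and Selp_low replicate 3.

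Groups without overlap depended on the scaling. Per 1000 CPM of summed HSC markers, a choice made after seeing the data, 1 member (Ndn) instead of 4 was higher in Selp_high than in Selp_low and 3 (Igf2, Rian and Mirg) instead of 0 were lower, 1 (Ndn) instead of 2 was higher in Selp_high paHSCs than in yHSCs, and 2 (Igf2 and Peg3) instead of 0 were higher and 0 instead of 1 lower in Selp_low paHSCs than in yHSCs. By library total, 2 (Meg3 and Dlk1) were lower in the last. These counts cover all 10 members, also those removed by the filter on low counts. Shares of all genes were not computed on these other scales.

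Some log2 fold changes turned sign, and the cause was not tested. With limma voom these were, for Selp_high over Selp_low, Gnas at 0.0079; for Selp_high paHSCs over yHSCs, Meg3 at 0.030, Rian at 1.58, Mirg at 0.33, Dlk1 at -0.29 and Gnas at -0.094; for Selp_low paHSCs over yHSCs, Gnas at -0.016; and for both fractions, Rian at 2.23, Mirg at 1.49, Grb10 at -0.027 and Gnas at -0.098. With the replicate block they were Meg3 at 0.12, Rian at 0.64 and Dlk1 at -0.042 for Selp_high paHSCs over yHSCs and Rian at 0.50 for both fractions. Meg3 was at 0.0014 in 1 fit of all libraries, and Dlk1 at 0.23 for both fractions when the fractions were summed by replicate number. Without the 2 libraries with the fewest genes detected, Meg3 was at 0.75 and Dlk1 at -1.23 for Selp_high paHSCs over yHSCs, and Rian at -0.48 and Mirg at -0.31 for Selp_low.

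Leaving out 1 library at a time gave, for Selp_high paHSCs over yHSCs, -0.38 to 0.55 for Meg3, -1.10 to 1.31 for Rian, -2.67 to 0.36 for Mirg, -1.13 to 1.32 for Dlk1 and -0.23 to 0.25 for Gnas. It gave -0.48 to 1.87 for Rian, -0.31 to 1.67 for Mirg and -0.38 to 0.56 for Ndn in Selp_low paHSCs over yHSCs. For both fractions it gave -0.77 to 1.56 for Rian, -1.16 to 0.97 for Mirg, -0.067 to 0.48 for Grb10, -1.20 to 0.061 for Dlk1 and -0.056 to 0.44 for Gnas. Of the 21 sign changes among these fits, 8 came without yHSC replicate 1. H19 and Igf2, at 41 and 13 counts in all, are limited by depth.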

Other observations

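Other imprinted genes and unnamed transcripts, chosen after their values were seen, had uneven levels. Mest, a paternally expressed hydrolase gene, gave 3857 counts in Selp_high replicate 2 and was at 0.187 to 4.37 CPM in the other 8 libraries, and the fractions overlapped. DESeq2 called it between the fractions (adjusted p = 0.00225), and its edgeR log2 fold change there was 5.58, or 1.98 without Selp_high replicate 2. The same library held 77 of the counts of Plagl1. Snrpn, a paternally expressed splicing gene of the Ndn region, was at 20.1, 6.58 and 3.55 CPM in Selp_high, 5.60, 1.25 and 2.47 in Selp_low and 4.03, 2.11 and 2.76 in yHSCs, with an edgeR adjusted p of 0.454 between the fractions. The row Gm37899, between Rian and Mirg, gave 208, 0 and 53 counts in yHSCs, 168, 307 and 70 in Selp_low and 0, 81 and 38 in Selp_high paHSCs, so its 2 zeros fell in the libraries with the lowest Rian. Between H19 and Igf2, Gm33148 gave 165, 6 and 66 counts in yHSCs, 22, 11 and 435 in Selp_low and 4, 40 and 109 in Selp_high paHSCs, while H19 gave at most 15 in any library.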
